A study of Mus musculus with 12 samples.

Results

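A set of 10 mouse genes of the Notch pathway was followed: the nuclear effector Rbpj, its targets Hes1, Hey1, Hey2, Heyl and Nrarp, the related factor Hes6, and the fringe enzymes Lfng, Mfng and Rfng. They are a list of named genes, and each was read on its brightest probe set carrying a single gene symbol, so that 10 of 10 were measured among 19938 genes. The samples were muscle satellite cells, the Pax7-positive stem cells of skeletal muscle, sorted for ZsGreen from heterozygous Pax7-ZsGreen mice of the C57BL/6 strain. All groups therefore carried the same reporter allele, and the sorting gates were set by age, with wild-type SV129 mice as the negative control. There were 4 stages with 3 microarrays each: fetal cells (E17.5, from forelimb and hindlimb of 4 pooled mice), adolescent cells (postnatal day 21, hindlimb of 6 mice), adult cells (2 to 3 months, hindlimb of 8 mice) and aged cells (over 1 year, hindlimb of 8 mice). The labels leave unsaid if the replicates came from different pools of animals, so the p-values speak just of the scatter among these arrays, which may be technical. Fetal and later cells also differed in limb, and age and limb cannot be told apart in comparisons with the fetal stage.

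Notch signalling starts when a ligand of the Delta or Jagged family on one cell binds a Notch receptor on its neighbour. The receptor is cut, and its intracellular part enters the nucleus, where it joins the DNA-binding protein Rbpj and a Mastermind co-activator to switch on target genes. The best known targets are the Hes and Hey genes, which encode basic helix-loop-helix repressors, and Nrarp, a feedback inhibitor that acts on the receptor's intracellular part. Fringe proteins are Golgi glycosyltransferases that extend O-fucose on the receptor and so change which ligands it answers to. In satellite cells Notch signalling keeps the stem cell state: mice that lose Rbpj in these cells, or that lack both Hey1 and Heyl, lose the quiescent pool to differentiation.

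RefSeq promoter windows (GRCm38.p6, from 250 bases before to 50 after the gene's start) were matched for 6 of the 10 genes, in 8 windows. A set of 3 is shown because the Lfng and Hey2 windows hold the Rbpj binding letters GTGGGAA, and Nrarp is the feedback target that fell most in adult cells. Capitals mark GTGGGAA, its core TGGGAA, and CACGTG, a sequence bound by many basic helix-loop-helix proteins, on either strand.
Nrarp, chr2:25180508-25180807, plus strand: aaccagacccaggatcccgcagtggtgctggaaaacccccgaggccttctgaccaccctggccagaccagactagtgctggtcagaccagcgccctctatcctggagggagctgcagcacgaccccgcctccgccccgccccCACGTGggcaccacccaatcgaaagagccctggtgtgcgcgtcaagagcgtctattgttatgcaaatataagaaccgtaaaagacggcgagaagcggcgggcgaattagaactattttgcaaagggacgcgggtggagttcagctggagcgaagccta
Lfng, chr5:140607091-140607390, plus strand: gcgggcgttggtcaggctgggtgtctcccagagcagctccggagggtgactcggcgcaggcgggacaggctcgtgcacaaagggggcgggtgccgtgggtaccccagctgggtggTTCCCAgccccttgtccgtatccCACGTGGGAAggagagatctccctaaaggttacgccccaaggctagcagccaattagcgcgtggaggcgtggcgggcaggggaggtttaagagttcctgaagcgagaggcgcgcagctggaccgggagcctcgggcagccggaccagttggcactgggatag
Hey2, chr10:30842734-30843033, minus strand: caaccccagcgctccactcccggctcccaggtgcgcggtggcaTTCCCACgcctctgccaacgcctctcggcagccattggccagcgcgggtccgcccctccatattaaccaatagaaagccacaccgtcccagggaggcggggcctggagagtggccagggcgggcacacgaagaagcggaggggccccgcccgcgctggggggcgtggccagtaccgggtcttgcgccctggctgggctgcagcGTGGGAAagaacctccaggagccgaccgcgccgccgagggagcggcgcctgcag
With the first base of the gene as 1 and no base 0, GTGGGAA lay at -109 to -103 in the Lfng window, where it overlapped CACGTG at -112 to -107. In the Hey2 window it lay across the start at -4 to 3 and, on the other strand, at -207 to -201. The Nrarp window held CACGTG at -108 to -103 and no GTGGGAA or TGGGAA. By gene, GTGGGAA occurred in 2, TGGGAA in 3 and CACGTG in 2 of the 6. Rbpj was counted once there because its 2 windows overlap and share a match. By window they occurred in 2, 4 and 2 of the 8, against 6.38%, 25.6% and 7.15% of all 32851 windows of 300 bases. A match describes the letters and does not show that a factor binds there.

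Values are log2 intensities made by the authors with RMA, and differences between stages are on the same log2 scale. A gene was called at an adjusted p under 0.05 (limma, Benjamini-Hochberg over all 19938 genes), "rose" and "fell" are used for such calls, and errors of differences are standard errors (SE) pooled over all 4 stages. Array medians ran from 6.13 to 6.29, and having 3 arrays per stage limits the precision. Replicates 2 and 3 of every stage lay closer to each other (r from 0.996 to 0.999 over all genes) than to replicate 1 (0.972 to 0.993). Adult replicate 1 lay closer to each adolescent array (0.984 to 0.985) and each aged array (0.982 to 0.983) than to adult replicates 2 and 3 (0.973 and 0.972). It also stood apart in genes of cycling cells, whose mean over 13 genes was 8.20 on it and 6.40 and 6.41 on adult replicates 2 and 3. Without adult replicate 1, 10757 of all genes were called in adult against adolescent cells and 7844 in aged against adult cells. With all arrays these counts were 3941 and 697, so a call gained without that array is read against the larger counts. As a guide to dim signal, the 95th percentile of 1212 olfactory and vomeronasal receptor probe sets was 5.33 to 5.52 on 9 arrays but 5.86 on aged replicate 1 and 6.13 on both adult replicates 2 and 3. Of the 10 genes, 8 exceeded that level on all 12 arrays, Hey2 on 11 and Nrarp on 10. All 10 satellite cell markers exceeded it on every array, with list means of 9.61 to 9.66 in fetal, 10.59 to 10.63 in adolescent, 10.84 to 10.92 in adult and 10.81 to 10.94 in aged cells.

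Of the 10 genes, 8 passed limma's F-test for a difference between any stages, as did 41.6% of all genes, and Mfng (adjusted p = 0.138) and Rfng (adjusted p = 0.430) did not pass. Without any 1 array the count stayed at 8. The number of all genes that passed ran from 6665 to 14192 in these fits, beside 8293 with all arrays. The profiles went different ways. Hes1 increased from stage to stage, Hey1 and Heyl stood higher after birth, Lfng and Hes6 were highest in fetal cells, and Nrarp was lowest in adult cells.

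**Figure D1:**
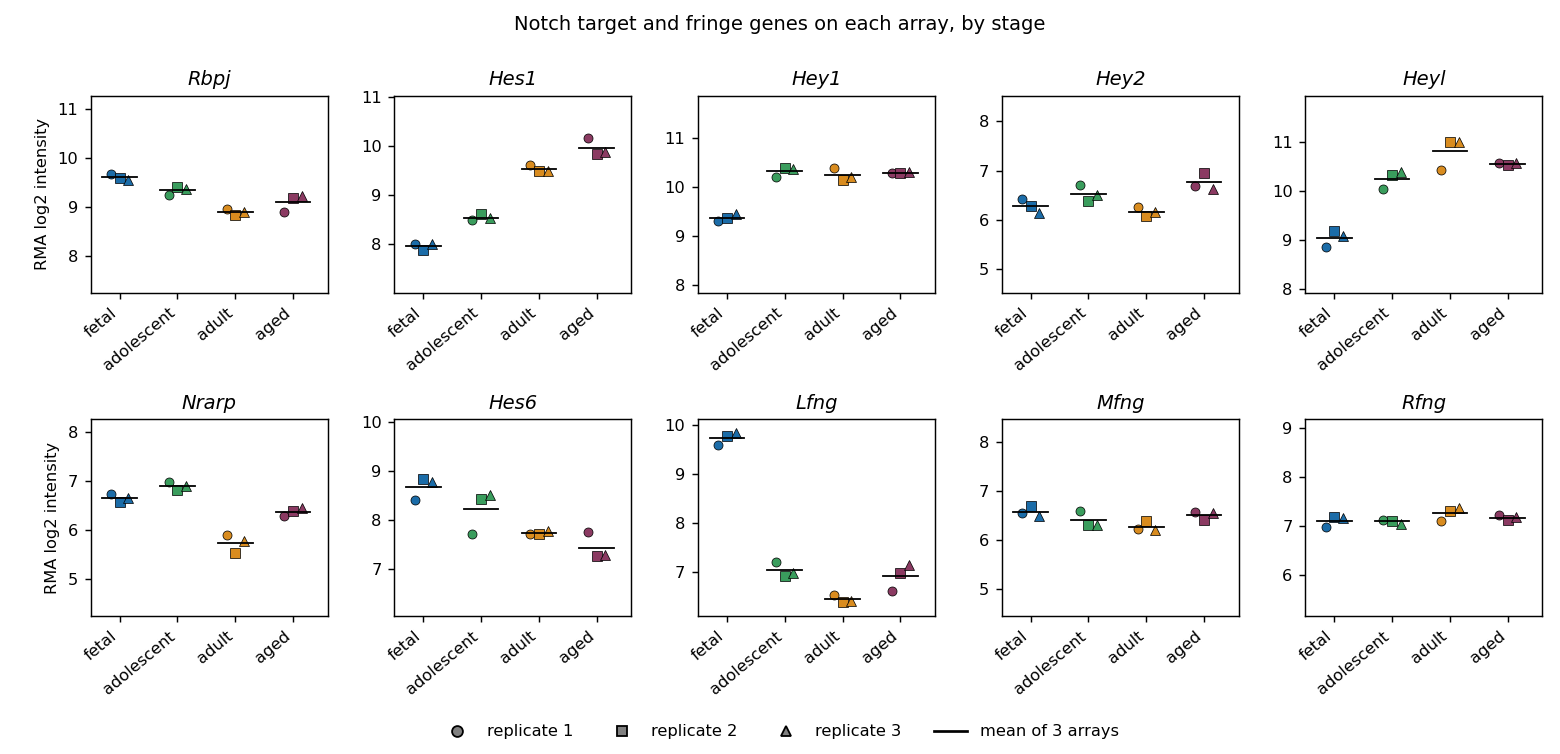
RMA log2 intensity (vertical axes, all of the same span) of the 10 genes on each of the 12 arrays, grouped by stage; symbols mark replicate numbers and lines the mean of 3 arrays. Hes1 averages 9.97 in aged and 7.96 in fetal cells, Lfng 6.45 to 7.04 at the later stages, against 9.74 in fetal cells, and Rfng lies between 6.97 and 7.37 on all arrays.

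Rbpj, the DNA-binding protein through which all 4 Notch receptors act, was highest in fetal cells and lowest in adult cells. It read 9.67, 9.58 and 9.55 on the fetal arrays, 9.24, 9.40 and 9.36 on the adolescent, 8.94, 8.84 and 8.89 on the adult, and 8.89, 9.18 and 9.21 on the aged arrays. Adult cells lay below fetal and below adolescent cells without overlap, while aged replicate 1 lay among the adult arrays. Rbpj fell in adult against fetal cells by 0.71 ± 0.10 (adjusted p = 1.52e-04), in adult against adolescent cells by 0.45 ± 0.10 (adjusted p = 0.0111) and in aged against fetal cells by 0.50 ± 0.10 (adjusted p = 0.00188). In stage order the neighbouring pairs adolescent and fetal (-0.26 ± 0.10, adjusted p = 0.113) and aged and adult (0.20 ± 0.10, adjusted p = 0.272) did not pass. A second Rbpj probe set was dim throughout (4.27 to 5.02), and averaging it in left none of these calls, with -0.17, -0.02 and -0.20 in place of the 3 falls. The fall in adult against adolescent cells was also lost with quantile normalization (-0.21, adjusted p = 0.155), without adolescent replicate 2 (adjusted p = 0.0513) and without adult replicate 2 (adjusted p = 0.0518).

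Hes1, a repressor that is a direct Notch target in many tissues, was the gene of the 10 whose stages were all called apart. Its intensities were 8.01, 7.88 and 8.00 in fetal, 8.49, 8.61 and 8.54 in adolescent, 9.61, 9.50 and 9.49 in adult, and 10.16, 9.84 and 9.89 in aged cells. No 2 stages overlapped on any array. Aged cells stood 4.00-fold above fetal cells (2.00 ± 0.10, adjusted p = 1.53e-08), adult cells 1.98-fold above adolescent cells (0.99 ± 0.10, adjusted p = 1.34e-04) and adolescent cells 1.5-fold above fetal cells (0.58 ± 0.10, adjusted p = 0.00133). The steps at adulthood and over the whole span held in every alternative run, while the step from fetal to adolescent was lost only when replicates 2 and 3 were averaged (0.56, adjusted p = 0.0790). The last step, aged above adult by 1.35-fold (0.43 ± 0.10, adjusted p = 0.0385), was less firm. It was lost in 13 of 22 alternatives, with quantile normalization (0.31, adjusted p = 0.123) and without any 1 of adult replicates 2 and 3 and aged replicates 2 and 3 (adjusted p from 0.0783 to 0.144). It was also lost without any 1 of fetal replicates 2 and 3 and adolescent replicates 2 and 3 (adjusted p from 0.0576 to 0.0708), and kept without adult replicate 1 (0.47, adjusted p = 0.00750).

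Hey1 and Heyl, the repressors that together maintain satellite cells in mice, were higher at each later stage than in fetal cells. Hey1 read 9.30, 9.37 and 9.44 on the fetal arrays and 10.14 to 10.39 on the other 9. It rose in adolescent against fetal cells by 0.94 ± 0.10 (1.92-fold, adjusted p = 1.39e-05), and by 0.87 ± 0.10 and 0.91 ± 0.10 in adult and aged against fetal cells. The fetal arrays lay apart, and the 3 later stages overlapped. Between those stages the differences were -0.07 in adult against adolescent cells (95% interval -0.28 to 0.14), 0.04 in aged against adult cells (-0.17 to 0.25) and -0.03 in aged against adolescent cells (-0.24 to 0.18). The direction of these small differences changed with the normalization.

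Heyl read 8.87, 9.20 and 9.09 in fetal, 10.05, 10.34 and 10.38 in adolescent, 10.44, 10.99 and 11.0 in adult, and 10.58, 10.53 and 10.58 in aged cells. Its range among adult arrays was the widest, with replicate 1 below the others. It rose in adolescent against fetal cells by 1.2 ± 0.15 (2.31-fold, adjusted p = 9.51e-05), in adult against fetal cells by 1.76 ± 0.15 (3.39-fold, adjusted p = 1.86e-06) and in aged against fetal cells by 1.51 ± 0.15 (2.84-fold, adjusted p = 5.38e-06). A further rise in adult against adolescent cells (0.56 ± 0.15, adjusted p = 0.0244) was 0.74 without adult replicate 1 (adjusted p = 4.32e-04). It was lost without adolescent replicate 1 or 2, or adult replicate 2 or 3 (adjusted p from 0.0522 to 0.114), and in a fit of those 2 stages alone (adjusted p = 0.0914). Aged against adult cells gave -0.25 ± 0.15 (adjusted p = 0.330), which passed without adult replicate 1 (-0.44, adjusted p = 0.0158).

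Hey2, the third Hey repressor and one known from arterial endothelium and heart, was dimmer on its probe set and moved less. It read 6.43, 6.27 and 6.14 in fetal, 6.71, 6.37 and 6.50 in adolescent, 6.26, 6.08 and 6.15 in adult, and 6.69, 6.96 and 6.63 in aged cells. The aged arrays lay above the adult and fetal arrays without overlap. Hey2 rose in aged against adult cells by 0.59 ± 0.13 (1.51-fold, adjusted p = 0.0224) and in aged against fetal cells by 0.48 ± 0.13 (adjusted p = 0.00865). Adult cells lay below adolescent cells without overlap (-0.36 ± 0.13, adjusted p = 0.0596), which passed without adult replicate 1 (-0.41, adjusted p = 0.0204). The rise in aged against adult cells was lost without any 1 of replicates 2 and 3 of either stage (adjusted p from 0.0560 to 0.125), and on adult replicate 2 the gene was not above the receptor level.

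Nrarp, the feedback inhibitor, was lowest in adult cells. It read 6.74, 6.58 and 6.65 in fetal, 6.97, 6.81 and 6.89 in adolescent, 5.89, 5.53 and 5.78 in adult, and 6.29, 6.38 and 6.44 in aged cells. The adult arrays lay below all 9 others. Nrarp fell in adult against adolescent cells by 1.16 ± 0.11 (2.23-fold lower, adjusted p = 6.92e-05) and in adult against fetal cells by 0.92 ± 0.11 (1.9-fold lower, adjusted p = 2.28e-05). It rose in aged against adult cells by 0.64 ± 0.11 (1.56-fold, adjusted p = 0.00664), yet was lower in aged than in adolescent cells (-0.52 ± 0.11, adjusted p = 0.00434). Adult replicates 2 and 3 were not above the receptor level for this gene, so its adult intensity is partly a bound. Both adult falls held in every alternative, and the rise with age was lost in the fit of those 2 stages alone (adjusted p = 0.0980) and with replicates 2 and 3 averaged (adjusted p = 0.423). Aged against fetal cells gave -0.28 ± 0.11 (adjusted p = 0.0581), which passed without adult replicate 1 (adjusted p = 0.0249) or adult replicate 2 (adjusted p = 0.0386).

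Hes6, a relative that opposes Hes1 and promotes myogenic differentiation, ran the other way from Hes1. It read 8.40, 8.84 and 8.78 in fetal, 7.72, 8.43 and 8.50 in adolescent, 7.72, 7.72 and 7.78 in adult, and 7.75, 7.26 and 7.28 in aged cells. Replicate 1 was the lowest in adolescent cells and the highest in aged cells, and neighbouring stages overlapped. None of the 3 steps from one stage to the next passed (-0.46, -0.48 and -0.31, each ± 0.20). Over longer spans Hes6 fell, by 0.93 ± 0.20 in adult against fetal cells (1.91-fold lower, adjusted p = 0.00267), by 0.79 ± 0.20 in aged against adolescent cells (adjusted p = 0.0142) and by 1.25 ± 0.20 in aged against fetal cells (2.37-fold lower, adjusted p = 2.81e-04). Without adolescent replicate 1 the adult against adolescent difference was -0.73 (adjusted p = 0.0165). The fall in aged against adolescent cells was lost without any 1 of replicates 2 and 3 of either stage (adjusted p from 0.0626 to 0.0739).

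The 3 fringe genes did not share a profile. Lfng (lunatic fringe), which in vertebrates favours signalling by Delta ligands, read 9.59, 9.79 and 9.83 in fetal cells. It read 7.22, 6.93 and 6.99 in adolescent, 6.54, 6.39 and 6.42 in adult, and 6.62, 6.99 and 7.15 in aged cells. Every fetal array lay above every later array. Lfng fell 6.46-fold in adolescent against fetal cells (-2.69 ± 0.14, adjusted p = 2.95e-08), 9.73-fold in adult against fetal cells (-3.28 ± 0.14, adjusted p = 2.64e-09) and 7.04-fold in aged against fetal cells (-2.82 ± 0.14, adjusted p = 9.73e-09). These 3 falls held in every alternative. A smaller fall followed in adult against adolescent cells (-0.59 ± 0.14, 1.51-fold lower, adjusted p = 0.0106), lost only with replicates 2 and 3 averaged (adjusted p = 0.176). Aged arrays lay above adult arrays without overlap (0.47 ± 0.14, adjusted p = 0.0895), and that difference passed without adult replicate 1 (0.51, adjusted p = 0.0191) or aged replicate 1 (0.62, adjusted p = 0.0108).

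Mfng (manic fringe) read 6.54, 6.70 and 6.49 in fetal, 6.59, 6.31 and 6.31 in adolescent, 6.22, 6.39 and 6.21 in adult, and 6.57, 6.40 and 6.56 in aged cells. It passed once, lower in adult than in fetal cells (-0.30 ± 0.11, adjusted p = 0.0425). That call was lost in 11 of 22 alternatives, among them leaving out any 1 fetal array, adult replicate 1 or 3, adolescent replicate 2 or 3, or aged replicate 3 (adjusted p from 0.0534 to 0.140). Rfng (radical fringe) read 6.97, 7.18 and 7.17 in fetal, 7.13, 7.11 and 7.05 in adolescent, 7.11, 7.31 and 7.37 in adult, and 7.22, 7.11 and 7.19 in aged cells. Neighbouring stages overlapped, and it passed in none of the 6 comparisons. Its difference in adolescent against fetal cells was -0.01 (95% interval -0.23 to 0.21), and in aged against fetal cells 0.07 (-0.15 to 0.28). Without adult replicate 1 it passed as higher in adult cells, by 0.24 against adolescent cells (adjusted p = 0.0422) and by 0.23 against fetal cells (adjusted p = 0.0424). With quantile normalization these differences were 0.41 (adjusted p = 0.0436) and 0.36 (adjusted p = 0.0410), beside 0.17 and 0.16 as deposited, and array weights also called both (0.25 and 0.19). In adult against adolescent cells 14481 of all genes passed with array weights and 10757 without adult replicate 1, beside 3941 as deposited. In adult against fetal cells up to 12968 of all genes passed without 1 array, beside 8465.

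**Figure D2:**
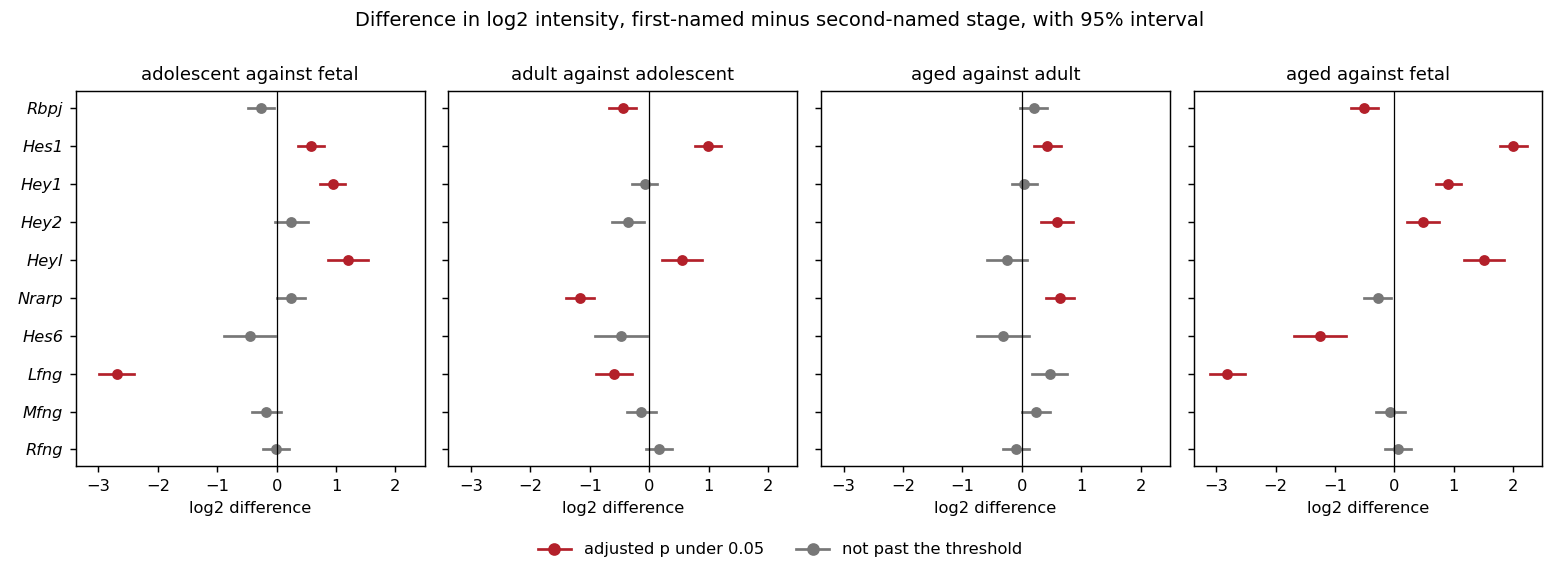
Difference in log2 intensity (horizontal axes, first-named minus second-named stage) of each gene in 4 of the 6 comparisons; points are estimates, lines 95% intervals of the limma fit, and red marks an adjusted p under 0.05. Lfng (-2.82) and Hes1 (2.00), both in aged against fetal cells, lie farthest from 0 on each side over the 4 panels, and Rfng straddles 0 in all 4.

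Counted by comparison, 4 of 10 genes passed in adolescent against fetal cells, where 18.8% of all genes passed: Hes1, Hey1 and Heyl rose and Lfng fell. In adult against adolescent cells 5 of 10 passed, against 19.8% of all genes: Hes1 and Heyl rose, and Nrarp, Lfng and Rbpj fell. In aged against adult cells 3 of 10 passed, against 3.50% of all genes: Hes1, Hey2 and Nrarp rose. Of longer spans, adult against fetal cells gave 8 of 10 (42.5% of all genes), aged against adolescent 3 of 10 (19.6%) and aged against fetal 7 of 10 (35.8%). Stages that did not overlap on any array were found for 6, 6 and 5 of the 10 genes in the 3 successive comparisons, against 41.6%, 36.0% and 16.0% of all genes, and for 8, 4 and 8 in adult against fetal (47.9%), aged against adolescent (38.4%) and aged against fetal cells (48.9%). The comparisons share arrays, so their counts are not independent. The median difference of the 10 genes was 0.11, -0.25 and 0.22 in the 3 successive comparisons, beside 0.02, 0.03 and -0.01 over all genes.

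The counts of adult cells against either neighbouring stage moved with single arrays. Without adult replicate 1, 7 of 10 passed in adult against adolescent cells (54.0% of all genes) and 5 of 10 in aged against adult cells (39.3% of all genes), where Lfng rose and Heyl fell in addition to the other 3. Without that array the adult against adolescent differences of Hes1, Nrarp, Lfng and Rbpj were 0.95, -1.24, -0.63 and -0.47, and the aged against adult differences of Hey2 and Nrarp were 0.64 and 0.72, all past the threshold. Without adult replicate 2 (9.41% of all genes), or adolescent replicate 2 (12%), 3 passed in adult against adolescent cells. In aged against adult cells 1 of 10 passed without any 1 of replicates 2 and 3 of either stage (all genes: 1.07% to 1.45%). In a fit of those 2 stages alone 0 of 10 passed, where limma called 176 of all genes. In that fit 4 of the 10 and 2216 of all genes had an unadjusted p under 0.05 (limma).

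Counts in lists of other pathway genes are read against the share of all genes that passed, which was 18.8%, 19.8% and 3.50% in the successive comparisons and 35.8% in aged against fetal cells. Of 9 upstream receptors and ligands, 4 rose and 0 fell in adolescent against fetal cells, 1 rose and 4 fell in adult against adolescent cells, and 1 rose and 0 fell in aged against adult cells. Dll1, a Delta ligand, read 8.47, 9.22 and 9.27 in adolescent cells, against 7.68, 7.85 and 7.85 in fetal cells (1.19 ± 0.18), and fell again in adult cells (-0.95 ± 0.18). Notch3, a receptor found in satellite cells and pericytes, rose in adult against adolescent cells (0.60 ± 0.11) and in aged against fetal cells (1.06 ± 0.11). Dll4, a Delta ligand typical of endothelium, rose in adolescent against fetal cells (1.19 ± 0.13), fell in adult against adolescent cells (-0.79 ± 0.13) and rose in aged against adult cells (1.14 ± 0.13).

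Of 15 measured genes for receptor cleavage and glycosylation, 5 rose and 2 fell in adolescent against fetal cells, and 0 rose and 2 fell in adult against adolescent cells. Pofut1, which adds the O-fucose that fringe enzymes extend, fell in adolescent against fetal cells (-0.57 ± 0.10) in the same comparison as Lfng. The sheddases Adam17 (-0.73 ± 0.11) and Adam10 (-0.59 ± 0.15) fell in adult against adolescent cells. Of 18 measured co-factors of Rbpj, 3 rose and 0 fell in adolescent against fetal cells, 1 rose and 3 fell in adult against adolescent cells, and 6 rose and 5 fell in aged against fetal cells. The first 2 of these counts lie near the share of all genes that passed. Maml2, a Mastermind co-activator, rose in aged against adult cells (0.88 ± 0.19) and by 2.08 ± 0.19 in aged against fetal cells, and the co-repressor Ctbp1 fell by 0.71 ± 0.09 in aged against fetal cells.

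Of 14 genes for receptor turnover and ligand endocytosis, 3 rose and 0 fell in adolescent against fetal cells, 2 rose and 1 fell in adult against adolescent cells, and 5 rose and 1 fell in aged against fetal cells. Neurl1b, a ubiquitin ligase of the Neuralized family, which act on Notch ligands, read 7.73, 6.92 and 6.79 in adult cells, against 9.41, 9.31 and 9.38 in adolescent cells (-2.22 ± 0.19). Numb, an inhibitor of the receptor, rose by 1.25 ± 0.11 in aged against fetal cells. Among 13 other hairy-related factors and Groucho co-repressors, which Hes proteins recruit, 3 rose and 1 fell in aged against fetal cells. Bhlhe41 rose most there (4.42 ± 0.22), with fetal readings of 4.00 to 4.26 under the receptor level, so the fetal side of that difference is a bound, and the co-repressor Tle3 rose by 1.31 ± 0.10.

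Collagen V genes and the calcitonin receptor Calcr, which binds collagen V, form a Notch-dependent loop that holds satellite cells quiescent in mice. Of 6 measured genes of collagens V and VI with Calcr, 2 rose and 1 fell in adolescent against fetal cells. Calcr (1.86 ± 0.09) and Col5a3 (0.93 ± 0.15) rose, and Col6a2 fell (-0.76 ± 0.10). None rose in the next 2 steps, where 2 and 1 fell. The median difference of the 6 was 0.17, -0.25 and -0.20 in the successive steps. In aged against adolescent cells 0 rose and 3 fell (19.6% of all genes passed), and in aged against fetal cells 2 rose and 3 fell (35.8%). Of 9 myogenic factors, 3 rose and 1 fell in adolescent against fetal cells and 3 rose and 2 fell in adult against adolescent cells. Pax7, the satellite cell regulator, rose by 0.50 ± 0.10 and 0.64 ± 0.10 in those steps. Myog, the differentiation factor that Notch activity holds down, did not pass in the first (0.74 ± 0.44, adjusted p = 0.344) and fell in the second (-2.0 ± 0.44, adjusted p = 0.00828), reading 9.50, 7.32 and 7.49 in adult cells, against 9.64, 10.33 and 10.33 in adolescent cells.

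In aged against adult cells, without adult replicate 1 (a setting chosen for these lists after seeing the data), the genes that rose and fell numbered 2 and 0 for receptors and ligands, 4 and 0 for cleavage and glycosylation, 7 and 0 for Rbpj co-factors, 4 and 0 for turnover and 5 and 4 for hairy-related factors and Groucho co-repressors. These lists held 9, 15, 18, 14 and 13 genes, and 39.3% of all genes passed in that fit, so that the first 4 lists lay at or below the share of all genes. Without that array 11 endothelial markers rose and 0 fell in the same comparison.

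**Figure D3:**
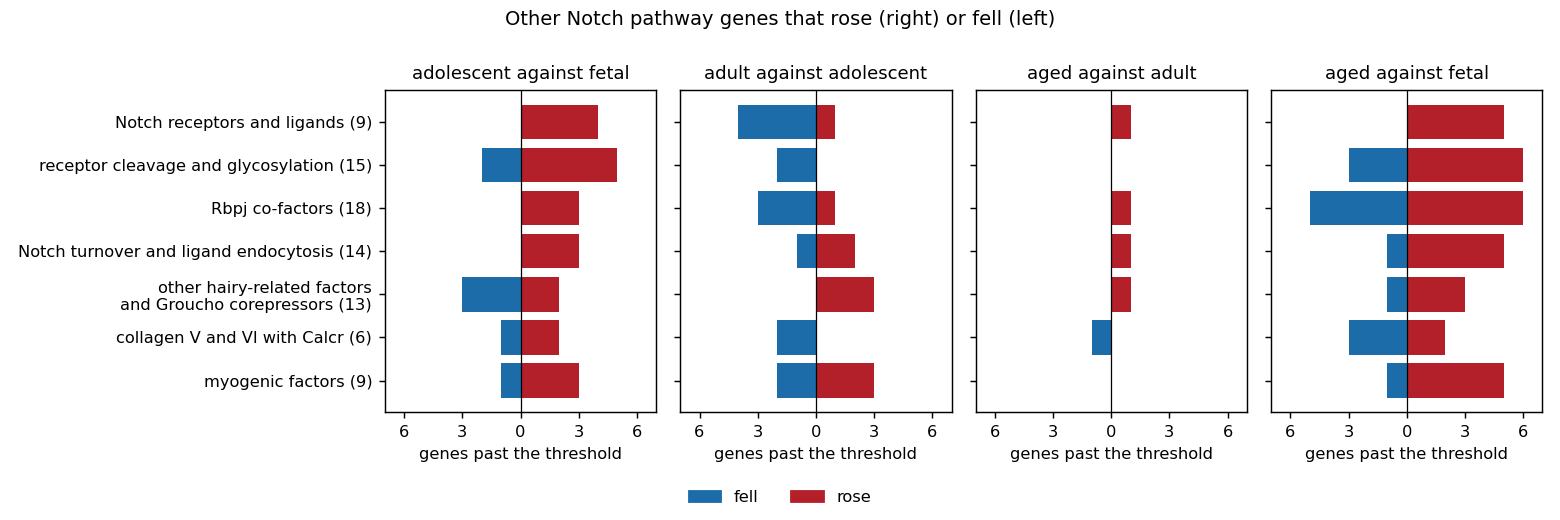
Number of genes that rose (red, right) or fell (blue, left) at an adjusted p under 0.05 in 7 lists around the Notch pathway, with the number measured in brackets, in 4 of the 6 comparisons. Receptors and ligands show 4 rises in adolescent against fetal cells and 4 falls in adult against adolescent cells, and no list shows more than 1 call in aged against adult cells.

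Markers of satellite cells and of other cell types moved with several of these results. Of the 10 satellite cell markers, 9 rose and 0 fell in adolescent against fetal cells. In adult against adolescent cells 4 rose and 0 fell, and in aged against adult cells 0 rose and 0 fell. All 12 endothelial markers exceeded the receptor level on every array. Of them 11 rose and 0 fell in adolescent against fetal cells, 0 rose and 7 fell in adult against adolescent cells, and 8 rose and 0 fell in aged against adult cells. Their mean was 6.86 to 7.69 on fetal, 8.37 to 8.96 on adolescent, 7.75 to 7.79 on adult and 8.54 to 9.14 on aged arrays. Nrarp fell and rose in the last 2 of these steps as the list did, while Lfng passed in the first of them alone (aged against adult cells, adjusted p = 0.0895) and Hey2 in the second alone (adult against adolescent cells, adjusted p = 0.0596). Pecam1, an endothelial adhesion protein, rose by 1.40 ± 0.33 (adjusted p = 0.0352) and the cadherin Cdh5 by 1.13 ± 0.26 (adjusted p = 0.0339) in aged against adult cells. Of 10 smooth muscle and pericyte markers, 9 exceeded the receptor level on every array, and 7 rose and 1 fell in adolescent against fetal cells, 0 rose and 3 fell in adult against adolescent cells, and 3 rose and 0 fell in aged against adult cells. Their mean was 7.29 to 7.55 on fetal, 8.12 to 8.64 on adolescent, 7.99 to 8.24 on adult and 8.43 to 8.67 on aged arrays. The part of these cells in the values of Hey1, Hey2, Heyl, Nrarp and Lfng was not tested, and in sorted cells measured in bulk, fewer cells of a type and less RNA per cell cannot be told apart.

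Leukocyte markers were dimmer: 2 of 8 exceeded the receptor level on all arrays, and their mean was 5.93 to 5.96 in fetal, 6.16 to 6.54 in adolescent, 5.98 to 6.64 in adult and 6.19 to 7.05 in aged cells. Of the 8, 0 rose and 0 fell in aged against adult cells, where Ptprc, the pan-leukocyte marker, gave 0.71 ± 0.33 (adjusted p = 0.236). In aged against adolescent cells 3 rose and 0 fell (19.6% of all genes passed), and in aged against fetal cells 4 rose and 0 fell (35.8%). The 13 genes of cycling cells averaged 10.09 to 10.39 in fetal, 9.57 to 9.82 in adolescent, 6.40 to 8.20 in adult and 6.13 to 7.06 in aged cells, and 13 of 13 fell in adult against adolescent cells. Of 4 mast cell markers, none of which exceeded the receptor level on all arrays, 0 rose and 3 fell in adolescent against fetal cells, as Lfng did, with means of 6.42 to 6.70 on fetal arrays and 4.51 to 5.20 on the others. Of 5 fibroblast, 7 myofibre and 3 Schwann cell markers, 1, 3 and 1 rose and 3, 0 and 0 fell in adolescent against fetal cells, 0 rose and 2, 3 and 1 fell in adult against adolescent cells, where Nrarp, Lfng and Rbpj fell, and 0, 0 and 1 rose and none fell in aged against adult cells. Without adult replicate 1, 7 of 7 myofibre markers fell in adult against adolescent cells, where 10757 of all genes passed in either direction. Of these lists, 4 of 5 fibroblast, 4 of 7 myofibre and 2 of 3 Schwann cell markers exceeded the receptor level on all arrays. The Schwann cell marker S100b exceeded it on none. That level was 6.13 on adult replicates 2 and 3, so the falls of dimmer markers in adult cells may be bounds. On adult replicate 1, where the mean of the cycling genes was highest among adult arrays, Heyl read 10.44 (10.99 and 11.0 on the other adult arrays), Hes1 9.61 (9.50 and 9.49) and Hes6 7.72 (7.72 and 7.78). On aged replicate 1, where it was highest among aged arrays, Hes1 read 10.16 (9.84 and 9.89) and Hes6 7.75 (7.26 and 7.28). The part of cycling cells and of the other types in these values was not tested.

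**Figure D4:**
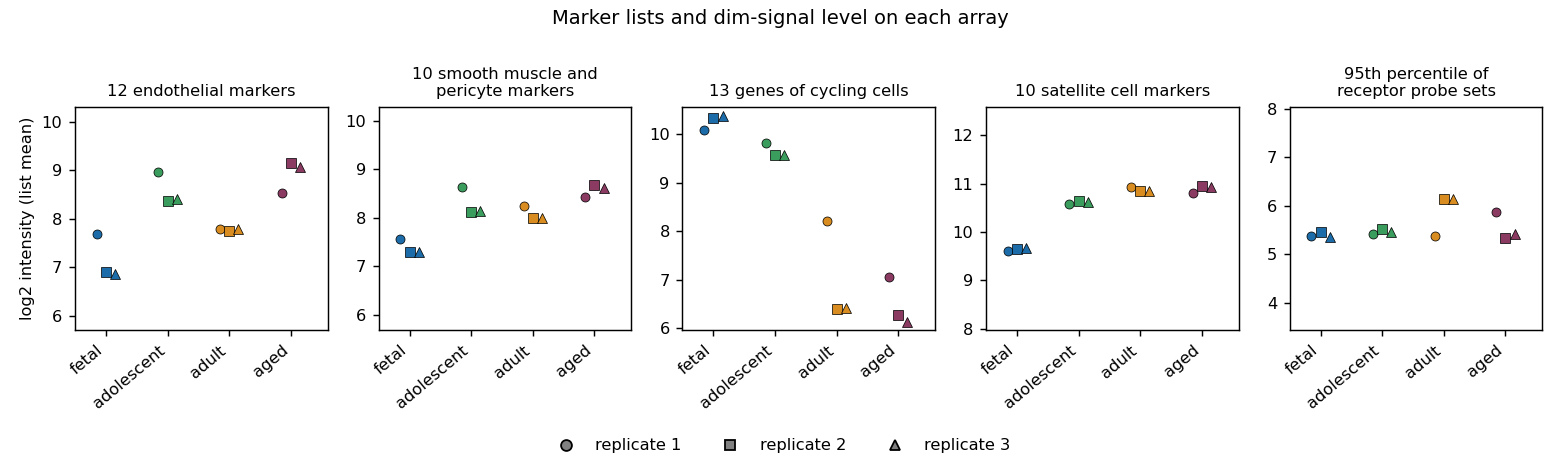
Mean log2 intensity of 4 gene lists and the 95th percentile of receptor probe sets (vertical axes, all of the same span) on each array by stage; symbols mark replicate numbers. The endothelial mean is 7.75 to 7.79 on the adult arrays and 8.54 to 9.14 on the aged arrays, and adult replicate 1 stands above the other adult arrays in cycling genes.

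The genes whose readings followed each of the 8 stage-dependent genes most closely over the 12 arrays were listed among 2627 genes whose stage means spanned at least 1 log2 unit. These correlations describe arrays that share 4 stages and carry no test. Hes1 lay nearest to the chemokine Ccl19 (r = 0.995), the receptor P2ry14 (0.992) and the transcription factor Cebpd (0.989). Hey1 lay nearest to the protease Ctsl (0.996), Lynx1 (0.990) and Olfml2a (0.984), and Heyl to Flt3l (0.985), Hmcn2 (0.984) and Loxl1 (0.984). Lfng lay nearest to Prkg1, a cGMP-dependent kinase (0.997), the mast cell protease Cpa3 (0.996) and Sh3rf1 (0.995), all with a fetal peak. Hes6 lay nearest to Efs (0.972), Fzr1 (0.967) and Kcnk13 (0.964), and Rbpj to Ctnnal1 (0.982), Septin11 (0.981) and Limch1 (0.979). The nearest genes were less close for Hey2, with the growth factor Kitl (0.947), the sphingosine receptor S1pr1 (0.933) and the kinase Nuak1 (0.921), and for Nrarp, with Tspan14 (0.918), Ehd4 (0.910) and Crybg3 (0.907).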

How the data were processed

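Expression was measured on 12 single-colour Affymetrix arrays of sorted satellite cells, 3 for each of 4 stages, grouped by their titles. Per the submitters' processing notes, the authors used RMA, with Affymetrix Expression Console (version 1.2.1.20) named, and the deposited log2 values were used as given. The genome build is not given in the sources used here. Of 35556 probe sets, 21789 carried 1 gene symbol in the platform annotation, 1621 several and 12146 none here; the brightest probe set by mean was taken for each of 19938 genes, 999 of which had several. A linear model with a mean per stage was fitted to all 12 arrays with limma 3.58.1 in R 4.3.3 (8 residual degrees of freedom), and p was adjusted by Benjamini-Hochberg over all genes in each of 6 comparisons. The exact rank test of 3 arrays against 3 cannot go below 0.1. The fit was tested on simulated data.

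The 10 genes, the lists around them (156 of 163 names measured) and the tests were chosen with earlier results of these data known. Named besides the 10 were up to 4 genes per list and comparison with the smallest adjusted p, 8 fixed genes, and for each gene passing the F-test the 3 most correlated genes with a highest stage mean of at least 6, leaving out predicted genes, RIKEN clones, small RNAs and smell receptors. With stage means subtracted, adult and adolescent arrays of the same number correlated at 0.362, 0.317 and 0.239, so these 2 stages were also fitted with the number as a block. Unlike numbers correlated as well between replicates 2 and 3: 0.293 for adult 3 with adolescent 2, 0.240 for adult 2 with adolescent 3. Unlike pairs with a replicate 1 ran from -0.336 to -0.264. The other 5 comparisons each had a pair of the same number at or under 0.1, with -0.435, -0.393 and -0.237 in aged against adult cells. Alternatives were quantile normalization, median centring, a filter on dim genes, other treatment of probe sets, a fit of 2 stages, a trended robust variance, array weights, the replicate block, averaging replicates 2 and 3, and leaving out each array. Of the unused value columns there were 0. Promoters came from RefSeq tables of GRCm38.p6.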

Additional observations from a re-analysis of the deposited data

How the results depend on the processing

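Of 1330 recomputed differences (10 genes, 6 comparisons), 1220 kept direction and side of the threshold, 55 lost the call, 40 gained it and 15 turned sign, all 15 with neither value called. The turned values were, with quantile normalization, 0.0893, 0.0614 and -0.0279 for Hey1 in adult against adolescent, aged against adolescent and aged against adult cells. With the mean of probe sets it was -0.0238 for Rbpj in aged against adult cells, with array weights 0.116 for Lfng in aged against adolescent cells, with replicates 2 and 3 averaged 0.0325 for Rfng in adolescent against fetal cells, and when centred -0.0220 and -0.0238 for Rfng in aged against adolescent and aged against fetal cells. Leaving out 1 array turned some values of Hey1 in aged against adolescent (-0.0881 to 0.00159) and aged against adult (-0.00868 to 0.113), of Lfng in aged against adolescent (-0.236 to 0.0266) and of Rfng in adolescent against fetal (-0.0789 to 0.0275) and aged against fetal cells (-0.00294 to 0.103). With array weights, 9 of 10 genes passed both in adult against adolescent and in aged against adult cells, 8 in adolescent against fetal and 7 in aged against adolescent cells, where 14481, 13659, 7749 and 9911 of all genes passed. With replicates 2 and 3 averaged, 2 passed in adult against adolescent, 1 in aged against adolescent and 0 in aged against adult cells (323, 1122 and 2 of all genes). In the last, 3 of the 10 and 1047 of all genes had an unadjusted p under 0.05 (limma). In a fit of the 2 stages alone 0 passed in aged against adult cells (176 of all genes). Without 1 array, 3 to 7 of the 10 passed in adult against adolescent cells, beside 1876 to 10757 of all genes. In aged against adult cells 1 to 5 passed, beside 214 to 7844 of all genes. In adolescent against fetal cells 4 to 5 passed (2690 to 5049 of all genes). In adult against fetal cells 7 to 8 passed (5923 to 12968 of all genes). In aged against adolescent cells 2 to 3 passed (2693 to 5466 of all genes), and in aged against fetal cells 7 to 8 (5893 to 8537). Over all genes the counts past the threshold moved by more than 1.5 times as well, in aged against adult cells from 2 to 13659 beside 697. Averaging replicates 2 and 3 also ended the calls of Hes6 (adjusted p = 0.0587) and Mfng (0.229) in adult against fetal, of Hes6 (0.314) and Nrarp (0.0802) in aged against adolescent, of Hey2 (0.118) in aged against fetal, and of Heyl (0.305) and Rbpj (0.279) in adult against adolescent cells. With replicate number as a block, the calls of Hes1 in aged against adult (adjusted p = 0.0642) and Mfng in adult against fetal cells (adjusted p = 0.0624) were lost. The other calls of the 10 genes were kept in that fit. The block fit of adult and adolescent arrays alone, chosen after seeing the data, kept all 5 calls. The cause of these changes was not tested. The 3 arrays per stage and the raised dim signal on adult replicates 2 and 3 limit what can be said of Nrarp and Hey2. On these 2 arrays Mfng (6.39 and 6.21) and Lfng (6.39 and 6.42) also lay little above the receptor level of 6.13. Their adult differences are limited in the same way.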

Other observations

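At each stage replicate 1 lay apart from its partners in some of the 10 genes, which was noticed after the values were seen. In fetal cells it read 8.40 for Hes6, 8.87 for Heyl and 6.97 for Rfng, where replicates 2 and 3 read 8.84 and 8.78, 9.20 and 9.09, and 7.18 and 7.17. In adult cells it read 10.44 for Heyl, 10.39 for Hey1 and 7.11 for Rfng, where they read 10.99 and 11.0, 10.14 and 10.19, and 7.31 and 7.37. In adolescent cells it read 7.72 for Hes6 and 10.05 for Heyl, where they read 8.43 and 8.50, and 10.34 and 10.38, and it was also the lowest in the ligand Dll1 (8.47 against 9.22 and 9.27) and in Myog (9.64 against 10.33 and 10.33), while its endothelial list mean was 8.96 against 8.37 and 8.41. In aged cells, replicate 1 read 10.16 for Hes1, 7.75 for Hes6, 6.62 for Lfng and 8.89 for Rbpj, where replicates 2 and 3 read 9.84 and 9.89, 7.26 and 7.28, 6.99 and 7.15, and 9.18 and 9.21. The same aged array had a mean of 7.06 over genes of cycling cells, against 6.26 and 6.13, and 8.54 over endothelial markers, against 9.14 and 9.08. Hey1, at 10.28, 10.27 and 10.30, and Heyl, at 10.58, 10.53 and 10.58, differed little among these 3 arrays.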
